A study of Mus musculus with 6 samples.

Results

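The chromatin accessibility of monocytic myeloid-derived suppressor cells (M-MDSCs) after MS-275 was compared directly with that after CXD101. Both compounds inhibit histone deacetylases (HDACs) 1-3. All peaks of the 2 lists that set the pooled MS-275 libraries against the pooled CXD101 libraries, 1 list in each direction, were taken. They hold 1652 of the 11800 peaks of the 6 lists of the series, or 14%. M-MDSCs (CD11b+ Ly-6Chi Ly-6G-) were sorted from orthotopic tumors of Hepa 1-6, a mouse hepatoma line, grown in the livers of wild-type female C57BL/6 J mice that were 6 to 8 weeks old. Mice received vehicle, MS-275 or CXD101 daily for 10 days, both compounds at 5 mg/kg by intraperitoneal injection in the same vehicle, and only mice with a high share of MDSCs in blood were entered. Each of the 3 groups had 2 ATAC-seq libraries, so the direct comparison rests on 4 libraries. How many mice each library drew on is not given in the sources used here.

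ATAC-seq uses a transposase that inserts sequencing adapters into DNA that is not wrapped in nucleosomes, so the number of reads at a site reflects how open that site is. HDACs 1, 2 and 3 are the catalytic subunits of corepressor complexes that remove acetyl groups from histone tails. Their inhibition raises histone acetylation, which loosens nucleosomes at promoters and enhancers. M-MDSCs are immature myeloid cells related to monocytes. They suppress T cells in tumors and carry much of the open chromatin of the myeloid lineage, set by factors such as PU.1, RUNX1 and the C/EBP family.

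The direct comparison was almost wholly one-sided. MS-275 was higher than CXD101 at 1650 peaks, and CXD101 was higher than MS-275 at 2 peaks. Each summit counts as 1 peak, and the 1650 peaks lie in 1562 distinct intervals. The pooled MS-275 libraries were 1.006 times as deep as the pooled CXD101 libraries, as worked out from the peak values, so the compounds were read at nearly equal depth. The total number of reads per library is unknown. So is the share of reads that fell in open sites, and whether that share differed between the compounds was not tested. Peak calling pooled the libraries of each group, so the lists hold no value per library. The p-values given here are those of the peak caller, compare the pooled libraries rather than the treatments, and carry no replicate check. Only 1 pair of compounds was compared, at 1 matched dose and time.

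The sequences that carry the comparison are shown first. Each is 201 bases of the GRCm38 (mm10) assembly centered on a summit, the point of the peak with most reads, on the plus strand. Capitals mark the 21 bases around the summit. The first 4 are among the strongest sites of MS-275 over CXD101, and the next 2 lie near the starts of Cd34 and Axin2. The last 2 are the only sites of CXD101 over MS-275.
Tmem119 (chr5:113804414-113804614): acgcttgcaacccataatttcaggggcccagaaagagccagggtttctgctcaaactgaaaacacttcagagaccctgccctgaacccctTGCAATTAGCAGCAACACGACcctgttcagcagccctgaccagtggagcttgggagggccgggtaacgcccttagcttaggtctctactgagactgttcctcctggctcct
Stambpl1 (chr19:34194299-34194499): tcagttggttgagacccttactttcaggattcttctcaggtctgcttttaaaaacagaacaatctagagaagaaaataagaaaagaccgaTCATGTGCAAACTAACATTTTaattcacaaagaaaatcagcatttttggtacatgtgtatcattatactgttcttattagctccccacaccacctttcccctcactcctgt
Aqp9 (chr9:71165350-71165550): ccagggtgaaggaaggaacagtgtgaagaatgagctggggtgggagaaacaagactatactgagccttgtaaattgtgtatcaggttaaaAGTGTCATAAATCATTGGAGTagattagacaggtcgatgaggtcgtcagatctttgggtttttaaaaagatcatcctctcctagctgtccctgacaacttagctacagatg
Zfp467 (chr6:48444242-48444442): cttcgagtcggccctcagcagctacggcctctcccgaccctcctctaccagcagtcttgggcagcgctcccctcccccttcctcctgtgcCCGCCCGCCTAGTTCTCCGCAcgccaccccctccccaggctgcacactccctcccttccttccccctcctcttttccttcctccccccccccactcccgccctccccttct
Cd34 (chr1:194938958-194939158): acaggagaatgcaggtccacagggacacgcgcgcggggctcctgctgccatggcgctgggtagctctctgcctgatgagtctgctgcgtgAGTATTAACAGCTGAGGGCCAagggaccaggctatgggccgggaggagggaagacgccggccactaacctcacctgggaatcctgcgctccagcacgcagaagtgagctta
Axin2 (chr11:108920474-108920674): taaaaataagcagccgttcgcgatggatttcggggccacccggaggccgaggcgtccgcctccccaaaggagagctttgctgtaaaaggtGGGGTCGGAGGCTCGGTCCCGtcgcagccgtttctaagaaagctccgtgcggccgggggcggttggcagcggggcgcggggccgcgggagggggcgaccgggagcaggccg
Gfra1 (chr19:58255312-58255512): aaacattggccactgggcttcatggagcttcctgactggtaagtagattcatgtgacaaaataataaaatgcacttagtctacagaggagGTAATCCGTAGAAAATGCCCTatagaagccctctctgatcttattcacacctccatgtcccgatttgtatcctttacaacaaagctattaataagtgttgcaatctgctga
Gm3411 (chr14:6282895-6283095): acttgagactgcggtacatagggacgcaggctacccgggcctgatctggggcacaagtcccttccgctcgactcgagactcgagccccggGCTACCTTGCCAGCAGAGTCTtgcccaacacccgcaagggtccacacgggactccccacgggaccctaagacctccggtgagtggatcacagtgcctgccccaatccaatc
Zfp467 and Axin2 had GC boxes in these windows, and Gm3411 had a C/EBP motif (ttgcccaa). The Zfp467 window held ccgccc, the GC box read on the other strand, starting 10 bases upstream of its summit and again 86 bases downstream. The Axin2 window held gggcgg 46 bases downstream of its summit. None of the 15 motifs searched matched the windows of Tmem119, Stambpl1, Aqp9, Cd34 or Gfra1. No match means only that these letters were not in the window. The Gm3411 window lay in an annotated repeat, and the 32 bases around its summit occurred 4780 times in the assembly.

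The median fold of MS-275 over CXD101 was 2.39, with quartiles of 2.05 and 2.89 and a range from 1.37 to 6.38. The fold adds 1 read to each level. The MS-275 level at a summit, scaled to the depth of the CXD101 libraries, had a median of 65.6 reads with quartiles of 46.7 and 87.5. The CXD101 level had a median of 25.9 reads with quartiles of 16.6 and 38.8. It is the highest of several local averages that the peak caller forms, so it is an upper estimate. The lowest CXD101 level, 6.64 reads, was reached at 13 summits. The fold was at least 2 at 1297 peaks (78.6%), at least 3 at 341 (20.7%) and at least 5 at 3. The weakest peak listed lay 27.6 kb upstream of Cd180, with 85.5 MS-275 reads over 56.2 CXD101 reads, a fold of 1.51 and a −log10 p of 3.88. Sites that missed the threshold are not listed.

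**Figure D1:**
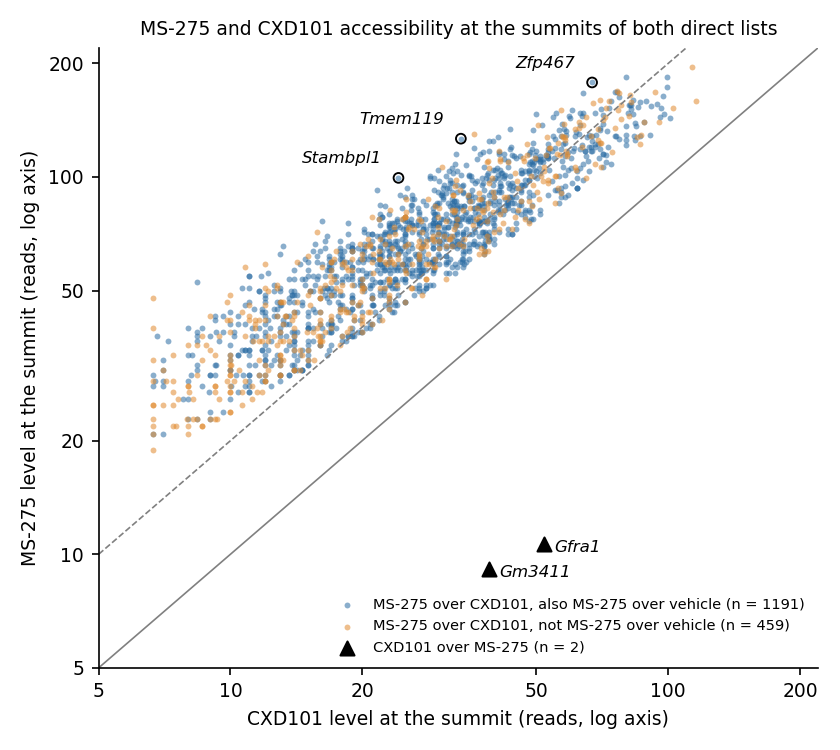
MS-275 level (vertical axis) against CXD101 level (horizontal axis) at each summit of both direct lists, in reads at the depth of the CXD101 libraries for the 1650 MS-275 peaks and of the MS-275 libraries for the 2 CXD101 peaks, both axes logarithmic. The solid line marks equal levels and the dashed line a 2-fold higher MS-275 level. The cloud lies along the dashed line from low to high CXD101 levels, and only the summits in Gfra1 and Gm3411 lie below the solid line.

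Sites in introns, promoters and between genes contributed about equally. A peak was called promoter if it overlapped the 5 kb upstream of a transcription start site (TSS), and otherwise exonic, intronic or intergenic. TSSs of all annotated transcripts were used, so a promoter peak can lie inside a gene. Of the 1650 peaks, 31.1% (Wilson 95% interval 28.9 to 33.4) were promoter peaks, 5.15% (4.19 to 6.33) exonic, 34.4% (32.1 to 36.7) intronic and 29.4% (27.3 to 31.6) intergenic. These intervals and all others given here cover counting error only. Summits within 1 kb of the TSS of a protein-coding gene numbered 269 (16.3%), and 766 (46.4%) lay 5 to 50 kb away and 317 (19.2%) farther. The median distance was 11.9 kb. Promoter peaks had a median fold of 2.33 and intergenic peaks one of 2.42, and the 412 strongest and the 412 weakest peaks of the list held 30.3% (26.1 to 34.9) and 31.1% (26.8 to 35.7) promoter peaks. The promoter share thus varied little with the strength of the peak. Intergenic peaks made up 32.3% (27.95 to 36.9) of the strongest and 27.7% (23.6 to 32.2) of the weakest, with overlapping intervals. The peaks of MS-275 over vehicle that overlapped none of the 1650 sites had 31.5% (30.4 to 32.6) promoter and 26.7% (25.7 to 27.8) intergenic peaks. These intervals overlap those of all 1650 peaks.

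**Figure D2:**
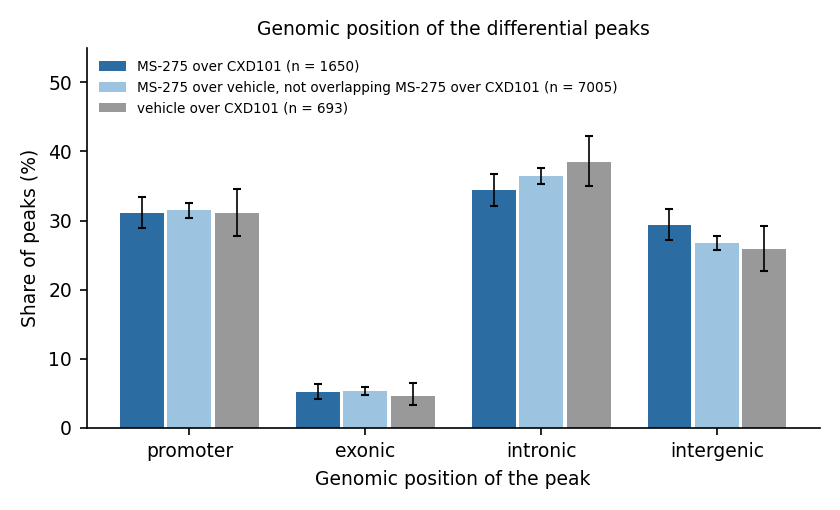
Share of peaks (vertical axis, percent) by genomic position (horizontal axis) for MS-275 over CXD101, MS-275 over vehicle at other sites, and vehicle over CXD101. Bars are shares and whiskers are Wilson 95% intervals. In each list promoter peaks make up 31.0% to 31.5%.

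Most sites were also opened by MS-275 relative to vehicle. Peaks of MS-275 over vehicle overlapped 1191 of the 1650 sites, and 459 sites overlapped none. Both lists contain the same MS-275 libraries, so the overlap is a description. The 459 sites had lower levels, with a median of 58.7 MS-275 reads over 22 CXD101 reads, against 67.6 over 27.2 at the 1191. Their median folds were close, at 2.41 and 2.37, and promoter peaks made up 29.6% (25.64 to 33.96) and 31.7% (29.1 to 34.4). Peaks of CXD101 over vehicle overlapped 51 sites (3.09%), peaks of vehicle over CXD101 20 (1.21%) and peaks of vehicle over MS-275 2 (0.121%). These lists differ much in size, so the shares cannot be compared directly. They hold 8480 peaks of MS-275 over vehicle, 284 of CXD101 over vehicle, 693 of vehicle over CXD101 and 691 of vehicle over MS-275.

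The strongest site, by −log10 p, lay 4.00 kb upstream of Tmem119, which encodes a transmembrane protein best known as a marker of microglia (chr5:113804412-113804654). It had 126 MS-275 reads over 33.6 CXD101 reads, a fold of 3.68 and a −log10 p of 34.1. MS-275 was also above vehicle there, with a vehicle level of 24.2 reads. The second lay in the promoter region of the non-coding A230028O05Rik, 66.6 kb past the end of Lpp, a LIM-domain protein of focal adhesions (chr16:25059076-25059286). It had 130.2 reads over 36 and no overlapping peak against vehicle.

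Among the other 8 of the 10 strongest sites, 3 lay inside a gene but upstream of the TSS of one of its shorter transcripts. Aqp9, a channel for water and glycerol, had 115 MS-275 reads over 32.8 CXD101 reads 228 bases upstream of such a TSS and 3.23 kb from the gene start, a fold of 3.44. Zfp467, a zinc finger transcription factor, had the highest level of the 10, with 178 reads over 67.0 and a fold of 2.63, at 1.48 kb from the gene start. Zfp467 was also the one site of these 10 with a peak of CXD101 over vehicle, with 92.3 CXD101 reads over 24.8 vehicle reads. Ubxn11, a UBX-domain protein (chr4:134119997-134120246), had 124 reads over 39.0 at 17.5 kb from the gene start.

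Introns and distal DNA held the remaining 5. In the intron of Stambpl1, a deubiquitinase that cuts lysine 63-linked chains, 99.4 MS-275 reads stood over 24.2 CXD101 reads, a fold of 3.98 (chr19:34194271-34194473). An intron of Fbn1 (chr2:125456297-125456509), which encodes the matrix protein fibrillin-1, had 119 reads over 36. Between genes, a site 114 kb upstream of Irf2bp2 (chr8:126707450-126707664) had 147 reads over 50.0, and one 13.5 kb past the end of Sh3tc2 had 92.5 over 21.6. The last lay in an exon of a non-coding gene, past the end of Snx5, in an annotated repeat, with 134 reads over 43.4. In 9 of the 10 sites MS-275 was also above vehicle.

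Sites near TSSs included those of Cd34, Hic1 and Axin2. Of the 10 strongest peaks within 1 kb of a coding TSS, 5 (Tmem51, Cd34, Plxnb2, Hic1 and Axin2) lay at the gene start and 5 at the TSS of a shorter transcript inside the gene. Behind Aqp9 and Zfp467, the strongest were at Ttll9, a tubulin-modifying enzyme (127 MS-275 reads over 40.8 CXD101 reads), the protease gene Htra3 (150.1 over 57) and the adhesion molecule gene Mpzl2 (89.5 over 24.4). Tmem51 followed with 111 over 36.6. Cd34, the sialomucin that marks hematopoietic progenitors and endothelial cells, had 100.4 reads over 31.0 at 63 bases from a start, a fold of 3.17. Plxnb2, a semaphorin receptor, had 117 over 41.0. The repressor gene Hic1 had 116 over 41.0 in a peak that also lay within 5 kb upstream of the microRNA genes Mir132 and Mir212. Axin2, a feedback inhibitor of the Wnt pathway, had 98.4 over 31.8, a fold of 3.03. Of these 10 sites, Htra3 and Plxnb2 had no overlapping peak of MS-275 over vehicle.

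The only 2 sites at which CXD101 was higher lay in introns and in annotated repeats. The intron of Gfra1, a co-receptor for the neurotrophic factor GDNF, had 52 CXD101 reads over 10.7 MS-275 reads, a fold of 4.55 and a −log10 p of 19.7 (chr19:58255317-58255521). The predicted gene Gm3411 had 39 over 9.15, a fold of 3.94 and a −log10 p of 13.3 (chr14:6282894-6283093). Neither overlapped a peak of any list against vehicle. Since the summit of the Gm3411 site occurs in many copies, its position is uncertain, while the summit in Gfra1 was unique. The 2 genes are 0.0092% of the 21728 protein-coding genes.

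Of the 21728 protein-coding genes, 782 (3.6%) had a peak of MS-275 over CXD101 in the gene or the 5 kb upstream, and this share is the background for the gene counts that follow. One peak was found in 629 of them, 2 in 115 and 3 or more in 38. Long genes offer more room, as the share rose from 1.15% in the shortest of 10 equal length classes of genes to 10.9% in the longest. A count for a gene list is therefore also set against the share among all coding genes of the same lengths.

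The genes with most peaks included Erg, Fli1 and Runx1, all long genes. Erg (chr16:95359169-95586593), an ETS-family factor of hematopoietic stem cells and endothelium, had 9 peaks, 8 of them intronic. They lay between 127 and 152 kb from the gene start, with MS-275 levels of 29.8 to 82.5 reads over CXD101 levels of 10.4 to 31.0, and folds of 1.90 to 3.49. Fli1 (chr9:32422204-32542861), its close relative, had 7 peaks with folds of 1.72 to 3.85, the strongest with 56.7 reads over 14 at 11.5 kb from the start. Runx1 (chr16:92601466-92826149), a core-binding factor needed for blood stem cells and monocytes, had 6 intronic peaks with folds of 1.56 to 3.06. Of these, 3 lay together at 109 to 111 kb from the gene start, and the strongest had 133 reads over 56.4. In Erg and Fli1, 7 of 9 and 5 of 7 peaks overlapped peaks of MS-275 over vehicle, in Runx1 3 of 6.

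The rest of the 10 genes with most peaks had various functions. Adipor2, a receptor for adiponectin, had 6 peaks, with folds from 1.78 to 3.72. Cd47 (chr16:49800533-49915010), the ligand that restrains phagocytosis through SIRPA, had 4 peaks, all in the 4.12 kb upstream of its start, with MS-275 levels of 64.6 to 84.5 reads over CXD101 levels of 21.0 to 37.0. Pik3cd, the delta catalytic subunit of PI3-kinase in leukocytes, had 4 peaks, 3 of them at 2.85 to 3.38 kb upstream. None of the Pik3cd peaks overlapped one of MS-275 over vehicle. Pdcd4, an inhibitor of translation, had 4 peaks near its start with folds of 1.49 to 2.88. Of these, 2 in the same interval also overlapped a peak of CXD101 over vehicle. Sept9, a septin of the cytoskeleton, had 4 peaks with folds of 1.503 to 3.12, and Tmeff1, a transmembrane protein, 4 with folds of 1.78 to 3.96. These counts are of summits, and in Fli1, Adipor2, Pik3cd, Pdcd4 and Tmeff1 some summits share an interval. The 8 peaks of Gm20388 fall in a gene model of 4435 kb that runs across other genes, so they cannot be assigned to it.

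**Figure D3:**
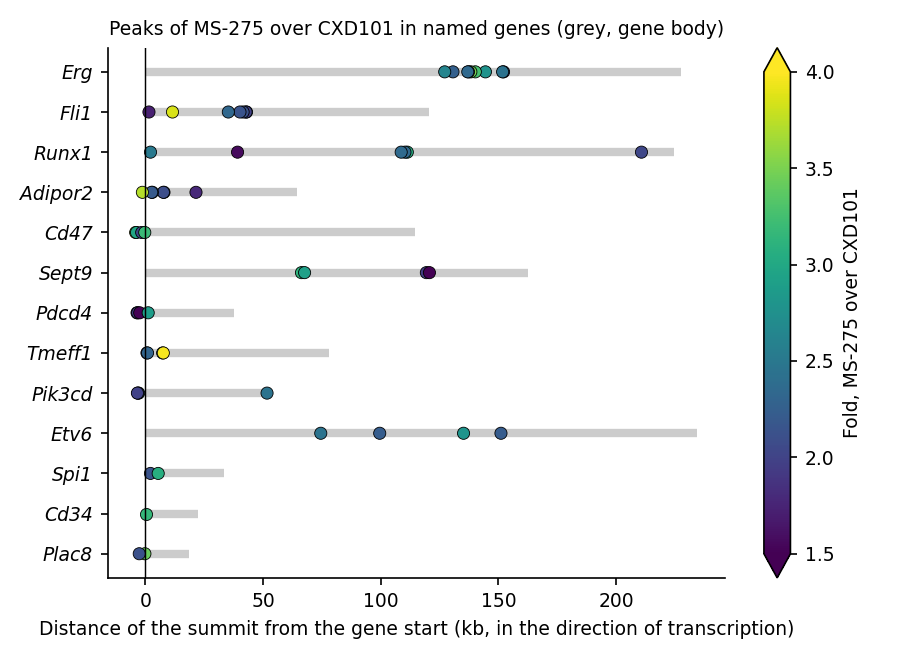
Peaks of MS-275 over CXD101 in 13 named genes. Each point is a summit at its distance from the gene start (horizontal axis, kb, in the direction of transcription), its color is the fold, and grey bars are gene bodies. The 9 Erg summits sit together 127 to 152 kb into the gene, while those of Cd47 sit at or just upstream of the start.

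Peaks were spread over the genome, with a few dense loci. The 1650 summits fell in 802 windows of 1 Mb, 425 of which held 1 summit, while the 56 windows with at least 5 held 395 summits (23.9%) and the 5 windows with most held 86. The window with most, on chromosome 8, held 32 over 302 kb around and upstream of Irf2bp2, which encodes a corepressor that binds IRF2. A run of 13 of them lay between 102 and 114 kb upstream of Irf2bp2, with no gap over 5 kb, with MS-275 levels of 48.7 to 147 reads over CXD101 levels of 14.2 to 61.0. The highest fold there was 4.51, at 76.6 reads over 16.2, and 26 of the 32 summits overlapped peaks of MS-275 over vehicle.

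The second window held 17 summits within 119 kb of chromosome 15 (63602557 to 63722013), 1.62 to 1.74 Mb downstream of the start of Myc. The nearest coding TSS was that of Gsdmc, at 86.75 to 206 kb. The blood enhancer cluster of Myc, a group of elements known to drive Myc in blood stem cells and myeloid leukemia, has been described in this region. A link of these sites to Myc or Gsdmc was not tested. MS-275 levels ranged from 27.8 to 115 reads and CXD101 levels from 10.0 to 74.0, with a median fold of 2.04. Within it, 13 summits lay in 12.03 kb. All 17 overlapped peaks of MS-275 over vehicle. No peak of MS-275 over CXD101 lay within 1 Mb of the Myc start itself. The third window, on chromosome 2, held 14 summits around Cebpb, a main myeloid transcription factor, and Ptpn1, a tyrosine phosphatase. The peak 872 bases upstream of Cebpb had 152 reads over 96.2, a fold of 1.57, and the summit 23.5 kb upstream of Tmem189 had 123 over 49.0.

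**Figure D4:**
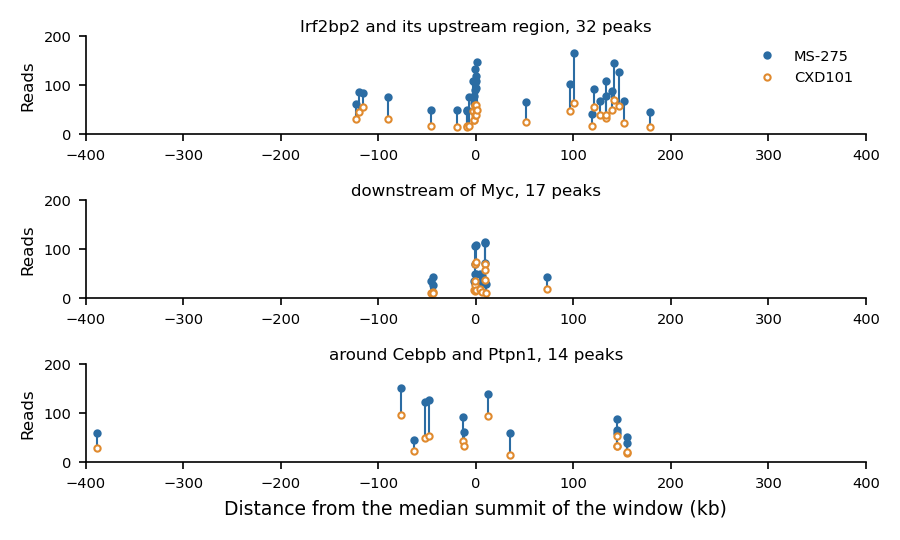
MS-275 levels (filled points) and CXD101 levels (open points) in reads at each summit of the 3 windows of 1 Mb with most peaks, against the distance from the median summit of the window in kb. The 32 summits at Irf2bp2 spread over 302 kb, while 13 of the 17 downstream of Myc lie within 12.03 kb.

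Transcription factors of monocytes and macrophages held peaks in 9 of 46 genes (19.6%), against 4.01% of coding genes of the same lengths. Spi1, which encodes PU.1, had 2 intronic peaks, the stronger with 124 MS-275 reads over 39.8 CXD101 reads at 5.45 kb from the start (chr2:91087735-91087935), a fold of 3.07. Myb, a factor of immature blood cells, had the highest fold, 4.13, at 37.8 over 8.4. Besides Runx1 and Fli1, Runx2 (2 peaks), Tcf7l2, Tfec (2 peaks), Pparg and Cebpb held the others. The 2 Tfec summits lay in the same interval, and the stronger occurred 19268 times in the assembly. Over the 23 peaks of this group the median fold was 2.33, against 2.39 for all 1650. The AP-1 family held 1 peak in 14 genes (7.14%, against 2.90%), at Atf3, with 65.6 over 32. The interval of this share, 1.27% to 31.5%, includes the background.

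Cell cycle arrest genes had peaks in 6 of 37 genes (16.2%, against 3.03%). The list also holds cyclins, cyclin-dependent kinases and E2F factors, so it covers control of the cycle more widely than arrest. Sesn2, a stress-induced inhibitor of mTORC1, had 143 MS-275 reads over 59.8 CXD101 reads. Cdkn2a, which encodes the cell cycle inhibitors p16 and p19ARF, had 2 peaks, the stronger with 59.7 over 15.0 and a fold of 3.79. E2f2 had 84.5 over 29.6. The cyclin genes Ccnd3, with 3 peaks, and Ccnd1, with 2, were also members, although both promote entry into the cycle. Btg2, an antiproliferative gene, had 67.6 over 30.0. Apoptosis genes had peaks in 3 of 36 (8.33%, against 2.88%), at Bmf, Bcl2l1 and Xiap, with folds of 1.69, 2.23 and 1.37. The interval of this share, 2.88% to 21.8%, includes the 3.6% of all coding genes. At Xiap vehicle was above both compounds, with a fold of 1.55 over MS-275 and 1.53 over CXD101.

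Exchange factors for small GTPases and actin regulators had peaks in 9 of 46 genes (19.6%, against 7.41%). Myo1f, a myosin of leukocytes, had 96.4 over 31.8, Dock5, an activator of Rac, had 3 peaks with folds of 1.99 to 3.98, and Lcp1, the actin bundler L-plastin, had 95.5 over 37.6. Tiam1, also an activator of Rac, had 2 peaks. Integrins and adhesion genes had peaks in 6 of 50 (12%, against 5.53%). With Cd47 these were Itgb7 (42.8 over 13.3), Itgam (75.6 over 37.2), Itgb2 (76.6 over 38.6), Itga6 and Pecam1. Itgam and Itgb2 encode the 2 chains of CD11b/CD18, the integrin by which these cells were sorted.

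Cytokines, growth factors and their receptors had peaks in 10 of 71 genes (14.1%, against 3.96%). Tgfb1, a suppressive cytokine, had 157 MS-275 reads over 67.4 CXD101 reads at 3.12 kb upstream. Pdgfc had 86.5 over 32.4, and Il10rb, a chain of the interleukin 10 receptor, 109 over 49.4. Ltb had 59.7 over 20.1, and Csf2rb, the common beta chain of the GM-CSF receptor, 58.7 over 22.8. Tnf had 81.5 over 45.4, a fold of 1.78. The sites at Pdgfc, Il10rb and Ltb overlapped peaks of MS-275 over vehicle, while those at Tgfb1, Csf2rb and Tnf did not. Of the suppressive effectors of MDSCs, 2 of 27 had a peak (7.41%, against 3.55%), Tgfb1 and Pdcd1lg2. The interval of this share, 2.06% to 23.4%, includes the background. Pdcd1lg2, a ligand of PD-1, had 2 peaks, with 66.6 over 25.4 and 111 over 42.2, but the summit of the second occurred 2316 times in the assembly. Only the second overlapped a peak of MS-275 over vehicle.

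Wnt, Notch and Hedgehog genes had peaks in 8 of 63 (12.7%, against 4.63%), led by Axin2, Notch3 (62.6 over 23.8), Tcf7l2 and Rbpj, whose summit occurred 72 times in the assembly. Lysosome and lipid genes had peaks in 4 of 33 (12.1%, against 3.31%), at Npc1, Cd63 (2 peaks), Cyp27a1 and Ctsd. At a q-value under 0.01, 2 of 33 were left (6.06%, against 3.309% of all coding genes), without Cyp27a1 and Ctsd. The Npc1 site overlapped a peak of vehicle over CXD101 (fold 2.295) and none of MS-275 over vehicle. Synaptic and neuronal genes, with 7 of 69 (10.1%), and voltage-gated ion channels, with 4 of 38 (10.5%), were close to the 7.65% and 9.23% of all coding genes of their lengths. Shank1 (84.5 over 28.0), Syt2 (64.6 over 19), Slc32a1 (59.7 over 17.2) and Gfra2 (44.7 over 12.6) led the former, and Scn2b, Kcnip1 and Cacna1a were among the latter.

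Immune recognition genes had peaks in 0% to 6% of members, depending on the list. Antigen presentation and costimulation had 0 of 29 genes with a peak, which allows up to 11.7% (Wilson). Chemokines and their receptors had 1 of 55 (1.82%), Ccl9, whose summit occurred 2 times in the assembly. The Ccl9 site overlapped a peak of vehicle over CXD101 (fold 3.12) and none of MS-275 over vehicle. Interferon genes had 2 of 48 (4.17%), Rsad2, the antiviral viperin gene (111 over 41.2), and Ifngr2. Toll-like receptor and inflammasome genes had 3 of 50 (6%), Ripk2 (115 over 55.6), Tlr2 (122 over 69.0) and Irak2. Lectin, Fc, Trem and scavenger receptors had 3 of 53 (5.66%), Siglec1 (46.7 over 13.6), Mrc2 and Clec12a, whose 2 summits occurred 4 and 4218 times in the assembly. The intervals of these 5 lists all include the 3.6% of all coding genes. They also include the shares of coding genes of the same lengths, which ranged from 2.13% (chemokines) to 3.155% (Toll-like receptors and inflammasome).

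Of the genes that encode HDAC complexes and the ubiquitin machinery, 3.23% to 7.69% had a peak, depending on the list, against 3.6% of all coding genes. Among coding genes of the same lengths the share was 4.67% for HDACs and their complexes and 5.83% for acetyltransferases and readers. It was 7.96% for HECT ligases, 3.18% for TRIM ligases and 4.90% for deubiquitinases. HDACs and their complexes had 2 of 45, Hdac7 (112 over 53.2) and Gatad2a, and acetyltransferases and acetyl-lysine readers 1 of 31, Baz2b. Hdac1, Hdac2 and Hdac3 had none in either direction. HECT ubiquitin ligases had 2 of 26, Wwp2 (92.5 over 55.2) and Nedd4, TRIM ligases 2 of 59, Trim69 (99.4 over 29.2) and Trim16 (41.8 over 11.4), and deubiquitinases 3 of 60, Stambpl1, Uchl3 and Uchl1. At Nedd4, 49.7 MS-275 reads stood over 27.6 CXD101 reads 283 bases upstream of the start. This peak was lost at a q-value under 0.01 and at a fold of at least 2, and it also overlapped a peak of CXD101 over vehicle, with 43.97 CXD101 reads over 17.6 vehicle reads. Trim6, Trim32 and Ccr2, the chemokine receptor that brings monocytes to tumors, had none in either direction.

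**Figure D5:**
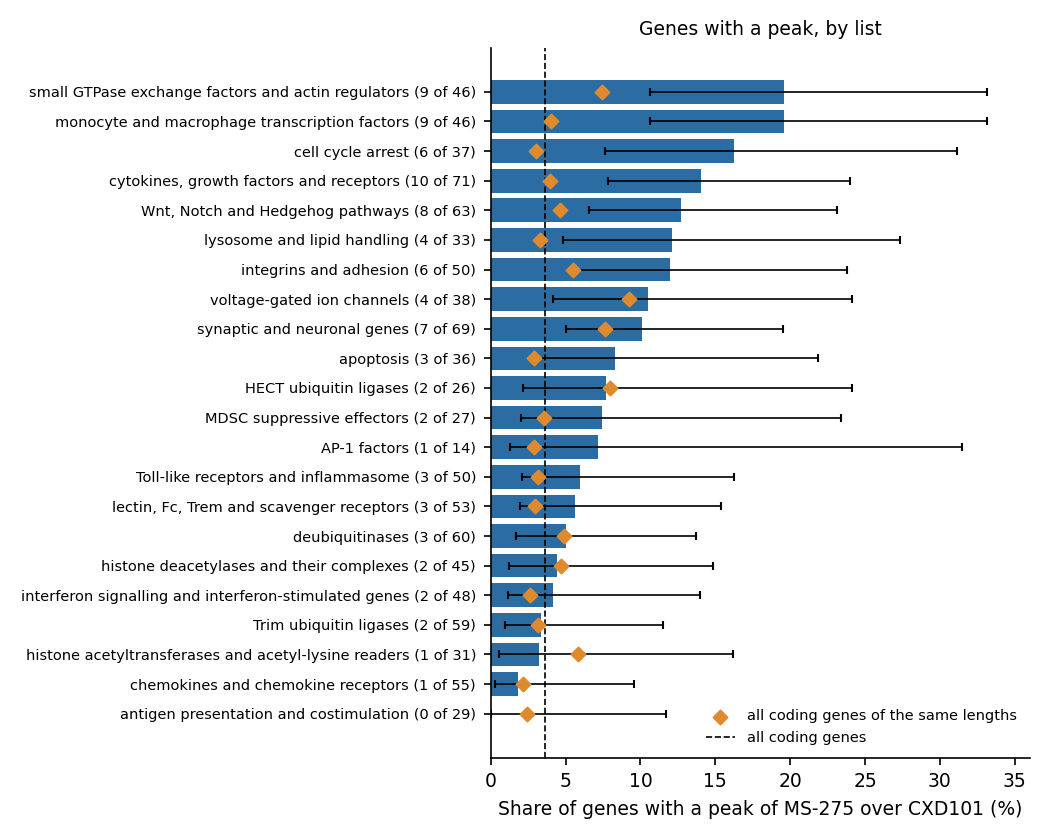
Share of genes with a peak of MS-275 over CXD101 (horizontal axis, percent) for 22 gene lists, with Wilson 95% intervals as whiskers. The dashed line marks the 3.6% of all coding genes and diamonds the share among coding genes of the same lengths. Exchange factors and actin regulators, monocyte transcription factors and the cell cycle arrest list, which also holds cyclins, lie farthest right. The antigen presentation list is at 0.

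Markers of the sorted cells and of other tumor cells were looked up in the same way. Monocyte markers had peaks in 5 of 13 genes (38.5%, against 3.64% of coding genes of the same lengths). Plac8, a gene of Ly-6Chi monocytes, had 2 peaks, the stronger with 78.5 MS-275 reads over 22.2 CXD101 reads at 199 bases upstream of its start, a fold of 3.43. Fn1 had 87.5 over 37.6, and Vcan 2 summits of the same interval at its start with 72.6 over 41.0 and 58.7 over 26. Ly6c1 had 37.8 over 14 at a summit that occurred 2 times in the assembly. Neutrophil markers had 1 of 13, Ly6g (23.9 over 9.0), hepatocyte markers 1 of 14, Hnf4a with 2 peaks (31.8 over 14 and 22.9 over 8.0), endothelial markers 2 of 10, Vwf and Pecam1, fibroblast markers 1 of 10, Pdgfra, and the brain macrophage markers 1 of 10, Tmem119. Coding genes of the same lengths had shares of 1.625% for the neutrophil, 2.47% for the hepatocyte and 5.83% for the endothelial list. The shares were 3.27% for the fibroblast and 2.42% for the brain macrophage list. The 2 Vwf summits lay in 1 interval, 1 of them in a sequence present 752246 times, and the Pdgfra summit in one present 1000942 times. Markers of mature macrophages, dendritic cells, T cells, B cells, NK cells, mast cells and erythroid cells had none. The shares at the same lengths ranged from 1.72% (NK cells) to 3.935% (B cells), so 0 in such short lists says little. The lists hold only sites that differ between groups, so the identity of the sorted cells could not be checked from sites open in both, and the part of other cell types in these differences was not tested.

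In their shares of annotated repeats and GC boxes the sites were close to the other sites of MS-275 over vehicle, called the other MS-275 sites here. The 201 bases around the summits had a median GC content of 50.2%, against 41.8% in the assembly, and a median of 3 CpGs. Annotated repeats held 17.9% of summits, against 34.3% of the assembly and 16.8% of the summits at the other MS-275 sites. A GC box (GGGCGG), the site of KLF and SP factors, occurred in 8.97% of windows (7.69 to 10.4), against 1.97% of all windows of that length in the assembly and 10.4% at the other MS-275 sites. It was found in 16.8% of promoter peaks and 5.45% of other peaks. Matches to AP-1 (TGANTCA) occurred in 5.27% (4.29 to 6.46) against 5.96% in the assembly, while 19.8% of the sites lost with CXD101 held one. C/EBP (TTGCNNAA) matched 8.12% (6.90 to 9.54) against 9.40%, RUNX (TGTGGTT) 5.52% (4.51 to 6.72) against 4.73%, IRF (GAAANNGAA) 7.03% (5.89 to 8.37) against 7.95% and PU.1 (GAGGAAGT) 1.58% (1.08 to 2.30) against 1.20%. Both strands were searched. A match is a description of the letters and not of binding.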

How the data were processed

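ATAC-seq was performed on M-MDSCs sorted from tumors of vehicle-, MS-275- and CXD101-treated mice. The authors aligned reads to mm10 with Bowtie2, pooled the 2 libraries of each group and called peaks of one group over another with MACS2 2.2.7.1. Whether reads were shifted for the transposase offset is not given beyond a stated shift of 0. The deposited lists give each peak's fold enrichment (a ratio), −log10 p and −log10 q. The offset of the summit is a further deposited column. The methods name a stricter p limit, whereas the lowest −log10 q in the lists is 1.302, a q-value of 0.05. The lists carry no header.

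The level in each group at a summit was recovered by finding the whole number of reads and the background that give the deposited fold and p, and all 11800 peaks were reproduced, 6 with a second solution. On simulated peaks of MS-275 over CXD101, 100% of 1536 were recovered. Genes were taken from GENCODE M21 and sequences from GRCm38. Motifs were searched within 100 bp of the summit. Peaks were assigned to a protein-coding gene if they overlapped it or its 5 kb upstream. Shares carry Wilson 95% intervals. The text names the 10 strongest peaks, all peaks of CXD101 over MS-275, the 10 genes with most peaks, the 10 strongest peaks within 1 kb of a coding TSS, up to 4 genes of each list by −log10 p, the ligase, receptor and HDAC genes of the study, and the 3 windows of 1 Mb with most peaks. Further members were named after their values were seen. The members and lists were chosen with earlier results of these data known. No test was run across libraries, since no value per library was used. Python 3.11.15, scipy 1.17.1 and pandas 2.3.3 were used. The alternatives tried were stricter limits on q and fold, distinct intervals, other definitions of promoter, gene, window and overlap, unique summits, and leaving out 1 gene model. A result that a rule would have named is not reported here.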

Additional observations from a re-analysis of the deposited data

How the results depend on the processing

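Of 42 alternatives for the main values, 34 stayed within their limits (1.5 times for counts, the interval for shares, 10% for medians), as did 195 of 264 alternatives for single lists and motifs. Each list holds peaks of 1 direction only, so no alternative could have reversed a direction. The count of MS-275 over CXD101 peaks ranged from 1297 to 1562 (q under 0.001, q under 0.01, fold of at least 2, distinct intervals, unique summits), while that of CXD101 over MS-275 stayed at 2 except that 1 peak was left with unique summits, an alternative chosen after seeing the data. The promoter share was 21.3% for summits within 1 kb of a TSS and 22.1% with TSSs of protein-coding genes only. The number of genes with a peak was 337 for peaks in the 5 kb upstream only and 240 for summits within 1 kb of a TSS. The GC box share was 4.79% within 50 bp and 5.45% outside promoters, and the median CpG count was 1 within 50 bp. The narrower windows and gene definitions hold fewer bases by construction, and GC boxes were found in 16.8% of promoter peaks. Monocyte transcription factors with a peak numbered 3 of 46 with the upstream rule, against 1.55% of all coding genes, and 15 with the nearest TSS within 50 kb, against 4.61%. No paired analysis was possible because peak calling merged both libraries of each group and left no separate values to pair, and leaving out a library was not run for the same reason. Sites that differ by less than the call limit at 65.6 reads, the median level, cannot be seen at this depth.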

Other observations

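Genes of blood stem and progenitor cells and the ETS family, lists put together after the values of Erg, Fli1 and Runx1 had been seen, held peaks in 11 of 33 genes and 6 of 26 genes, against 3.6% of all coding genes and 4.96% and 4.58% of those of the same lengths. As they were drawn up from these results, the counts support nothing. Besides the genes named above, Etv6, an ETS repressor of blood stem cells, had 4 intronic peaks with MS-275 levels of 53.7 to 85.5 reads over CXD101 levels of 18.6 to 38.0. Elk3 had 37.8 over 9.4 and Ets1 35.8 over 14. Bcl11a, a repressor of fetal globin genes, had 86.5 over 41.0, and Cbfa2t3, a corepressor of the same lineage, 2 peaks upstream of its start with 65.6 over 34 and 41.8 over 17. One peak lay inside Hoxa10 and within 5 kb upstream of Hoxa9, with 29.8 over 13, and Sox4 had 65.6 over 38.0.

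Among the sites with a fold of at least 5, those described here, named after their values were seen, had little signal under CXD101. A site upstream of Fam3b, 15.2 kb from its TSS, had 52.7 MS-275 reads over 8.4 CXD101 reads, and an intron of Epc1, a subunit of the NuA4 acetyltransferase complex, 39.8 over 6.64. Across chromosomes, peaks of MS-275 over CXD101 ranged from 3.44 to 9.60 per 10 Mb on the autosomes and numbered 1.11 per 10 Mb on chromosome X, where the other MS-275 over vehicle peaks were also sparse, at 6.55 against 22.4 to 37.1 on the autosomes.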
